A study of Saccharomyces cerevisiae with 6 samples.

Results

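The genes described here encode subunits that nuclear RNA polymerases share with one another, together with core subunits of RNA polymerase II (Pol II). They were chosen by name from 10 listed genes, and 7 of them had a value on at least 2 of the 6 arrays, out of 655 genes in the series that met the same requirement. RPB2, RPB3 and RPB7 belong to Pol II only, RPB5 and RPB10 are shared by Pol I, II and III, and RPC19 and RPC40 are shared by Pol I and III. RPB8, RPO26 and RPC10, which are also shared by all the nuclear polymerases, each had 2 probes on the array, of which 0 gave a value on any array.

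Each measurement comes from a Saccharomyces cerevisiae DAmP strain, a haploid strain in which a resistance cassette behind an essential gene lengthens the 3′ end of its mRNA, and the added part holds a barcode particular to the strain. A subunit's value therefore describes the extended mRNA of that subunit in the strain where this one gene is extended, and different subunits are read from different strains of the pool. The pools were made by crossing the DAmP collection, in the BY4742/BY4741 background, with a deletion of NMD2 (UPF2), of NAM7 (UPF1) or of YEL068C, the reference. All 3 pools carried DAmP alleles and both resistance markers and were kept for 18 generations in G418 and nourseothricin, and the cells were collected in exponential growth. Each pool comes from 1 cross and has 2 arrays, which the series text calls technical replicates begun from the cell material, so the p-values measure only that technical spread.

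RNA polymerases read genes into RNA. Pol I makes the large ribosomal RNA precursor, Pol II makes mRNA, and Pol III makes tRNA and 5S ribosomal RNA. The largest and second-largest subunits form the active centre, a heterodimer related to the bacterial alpha subunits (Rpb3 with Rpb11 in Pol II, Rpc40 with Rpc19 in Pol I and III) serves as the assembly platform, and small shared subunits such as Rpb5 and Rpb10 sit in every enzyme. NMD2 and NAM7 encode factors of nonsense-mediated mRNA decay, which degrades mRNAs whose stop codon lies in an abnormal context, among them mRNAs with long 3′ extensions. The comparison of the mutant pools with the YEL068C pool asks which extended mRNAs change when this decay is lost.

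Every value is the log ratio of a barcode in RNA (Cy3) to the same barcode in genomic DNA (Cy5), read as log2 and centred so that the median of the 444 features valued on all 6 arrays is 0 on each array. The direction, RNA over DNA, is likely rather than stated. In the deposited sign, the median over 15 measured genes for abundant mRNAs was -2.82 on the YEL068C arrays, and the sign was turned for that reason. With the other direction every higher value given here would be lower and the reverse. Dividing by DNA takes out how common a strain is in its pool, but more RNA and less DNA cannot be told apart in a ratio. The arrays gave values for 658 and 798 probes in the NMD2 pool, 666 and 792 in the NAM7 pool, against 660 and 749 in the YEL068C pool. The deleted genes themselves gave no signal to check the deletions by, 0 of these 3 genes having a value. None of the 7 subunit genes lies on the chromosome of a deleted gene in RefSeq R64, whereas RPC10, without values, shares chromosome VIII with NMD2.

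The subunits covered a wide range of ratios, and none of the 4 valued on all 6 arrays was below the array median in any pool. RPB10, which encodes a small zinc-binding subunit of all the nuclear polymerases, had the highest ratio of all 444 features on both YEL068C arrays. It read 5.04 and 4.64 in the NMD2 pool, 4.82 and 4.59 in the NAM7 pool, against 5.19 and 5.64 in the YEL068C pool. All 4 mutant arrays lay below both YEL068C arrays, and RPB10 ranked 4th, 5th and 1st by pool mean in these pools (4.84 ± 0.28, 4.70 ± 0.17 and 5.41 ± 0.31, SD, n = 2 each). On a linear scale, if the base is 2, the YEL068C mean is 42.6 times the array median. The ratios of the other members were far lower, as the plot of levels by array shows.

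**Figure D1:**
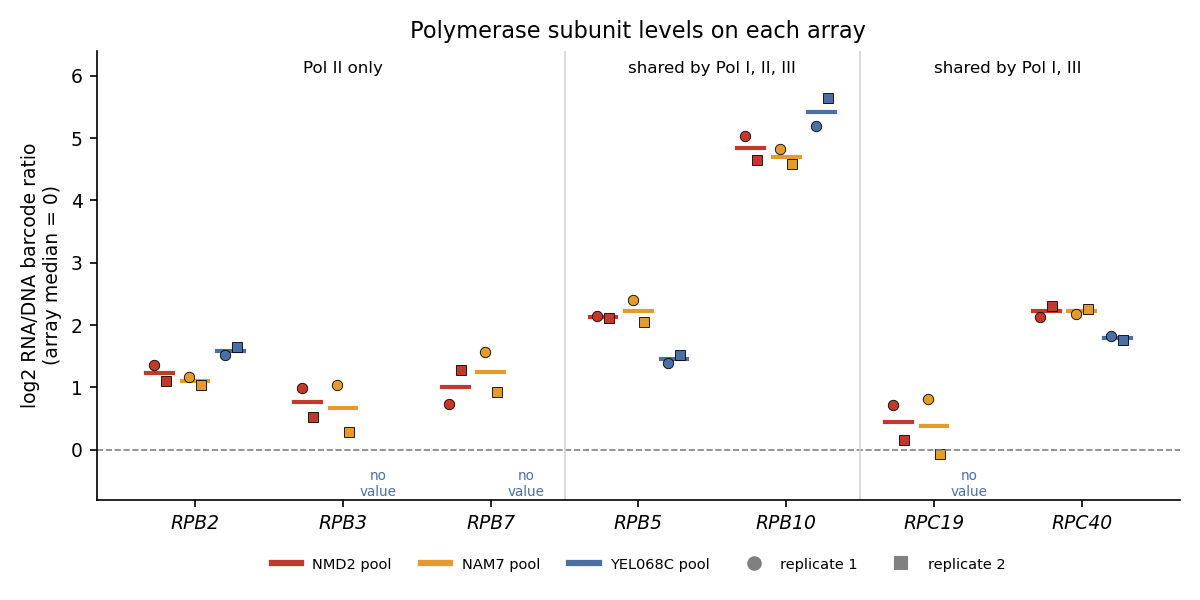
Log2 ratio of barcode in RNA to barcode in DNA (vertical axis, array median at 0) for the 7 subunit genes, in the NMD2, NAM7 and YEL068C pools from left to right. Circles and squares are the arrays numbered 1 and 2, bars are pool means, and RPB3, RPB7 and RPC19 have no YEL068C value. RPB10 lies near 5 in every pool, RPB5 and RPC40 are higher in both mutant pools than in the YEL068C pool, and RPB2 and RPB10 are lower.

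RPB5 encodes the shared subunit that forms part of the jaw holding downstream DNA. Its ratio was 2.14 and 2.12 in the NMD2 pool, 2.40 and 2.06 in the NAM7 pool, against 1.39 and 1.53 in the YEL068C pool. All mutant arrays stood above both YEL068C arrays, and its pool means placed it 34th, 30th and 68th among the 444 features. RPB5 is the only member with 2 fully valued probes, which differed by at most 0.14 on any array and gave mean differences from the YEL068C pool of 0.68 and 0.77. RPC40, the alpha-like subunit of Pol I and III, had 2.13 and 2.31 in the NMD2 pool, 2.18 and 2.26 in the NAM7 pool, against 1.83 and 1.76 in the YEL068C pool. Its mutant arrays were all above the YEL068C arrays too, and the 2 mutant means were equal (2.22 ± 0.13 and 2.22 ± 0.05, against 1.79 ± 0.05 in the YEL068C pool). RPB2, the second-largest subunit of Pol II, went the other way. It read 1.36 and 1.10 in the NMD2 pool, 1.16 and 1.03 in the NAM7 pool, against 1.52 and 1.66 in the YEL068C pool, with no overlap between mutant and YEL068C arrays.

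The order of the ratios differed between pools, and since each subunit is read by its own barcode this is an order of array ratios and not of mRNA amounts. In both mutant pools RPB10 was highest, RPC40 and RPB5 followed close together, and RPB2 came last of the 4. In the YEL068C pool RPB10 again led, and RPC40 (1.79 ± 0.05), RPB2 (1.59 ± 0.10) and RPB5 (1.46 ± 0.10) lay close together. RPC40 and RPB5 in the mutant pools, and RPB2 and RPB5 in the YEL068C pool, had arrays whose ranges overlapped.

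Averaged over both mutant pools, RPB5 differed from the YEL068C pool by 0.72 (SE 0.21) and RPC40 by 0.42 (SE 0.19), while RPB10 differed by -0.64 (SE 0.24) and RPB2 by -0.42 (SE 0.20), each with 4 against 2 arrays. In limma without a term for the replicate number, 0 of the 4 members passed the threshold of 0.05 after Benjamini-Hochberg adjustment over 444 features, against 4.05% of all features. The adjusted p-values were 0.0927 for RPB5, 0.158 for RPB10, 0.21 for RPC40 and 0.223 for RPB2. An unadjusted p under 0.05 was found for 2 members and for 118 of the 444 features. Over all features, same-numbered arrays of different pools shared their deviations from the pool means, and with the number as a block all 4 members passed (limma, adjusted p = 0.000487 for RPB5, 0.0039 for RPB10, 0.00881 for RPC40 and 0.0111 for RPB2). The 4 members themselves did not share them. For each, the difference between array 2 and array 1 had one sign in both mutant pools and the other sign in the YEL068C pool, as for RPB10 with -0.40 between the NMD2 arrays, -0.23 between the NAM7 arrays and 0.45 between the YEL068C arrays. With the block the residual SD before moderation was larger for every member, at 0.315 with the block and 0.261 without it for RPB10, 0.174 and 0.152 for RPB5, 0.140 and 0.128 for RPB2, and 0.0923 and 0.0871 for RPC40, whereas the median over all features was 0.124 with the block and 0.288 without it. The blocked calls of the members thus rest on limma's error moderated over all features, not on a closer fit of their own arrays. In that blocked fit 59.9% of all features passed, 29.7% higher and 30.2% lower, so calls of either sign were common across the array. The 4 members also had all mutant arrays on one side of both YEL068C arrays, as had 41.7% of all features.

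Taken between arrays of the same number, the 4 differences of each member had one sign, as had those of 72.5% of all features. RPB5 was higher by 0.76 and 0.59 in the NMD2 arrays and by 1.01 and 0.53 in the NAM7 arrays. RPC40 was higher by 0.29 to 0.56. RPB2 differed by -0.17 and -0.56 in the NMD2 pool and by -0.36 and -0.62 in the NAM7 pool. RPB10 varied most with the array number. Its differences were -0.15 and -0.37 among arrays numbered 1, and -0.99 and -1.05 among arrays numbered 2. In the blocked fit the RPB10 difference was -0.26 (adjusted p = 0.231 in limma) without YEL068C replicate 2 and -1.02 (0.000226) without YEL068C replicate 1. RPB2 and RPC40 also lost their blocked call without YEL068C replicate 2 (-0.26 and 0.32), and RPB2 and RPB10 lost it without NMD2 replicate 2 (-0.36 and -0.52). Over the 6 blocked fits that left out 1 array, the RPB5 difference was 0.56 to 0.89 for the mean of both mutant pools. It was 0.51 to 0.835 for the NMD2 pool alone and 0.57 to 0.97 for the NAM7 pool alone.

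**Figure D2:**
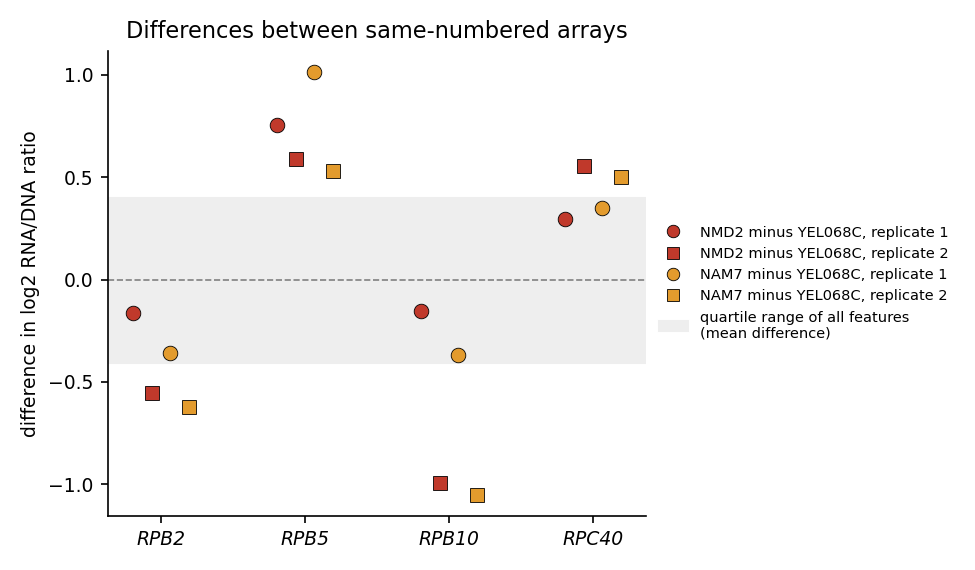
Difference in log2 RNA/DNA ratio (vertical axis) between a mutant array and the YEL068C array of the same number, for the 4 subunit genes valued on all 6 arrays. Red is NMD2 minus YEL068C and orange is NAM7 minus YEL068C, circles and squares are arrays numbered 1 and 2, and the grey band spans the quartiles of the mean difference over all features (-0.41 to 0.40). RPB5 and RPC40 are above 0 in every pair, RPB2 and RPB10 are below it, and the RPB10 squares lie near -1.

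Each mutant pool taken alone gave the same signs. The NMD2 and NAM7 comparisons share the YEL068C arrays and are given side by side for that reason. Relative to the YEL068C pool, RPB5 differed by 0.67 with NMD2 deleted and by 0.77 with NAM7 deleted, and RPC40 by 0.42 in each. RPB10 differed by -0.57 with NMD2 deleted and -0.71 with NAM7 deleted, and RPB2 by -0.36 and -0.49. Without the block 0 members passed in limma in either pool, where 0% of features did. An unadjusted p under 0.05 was found for 1 and 2 members, and for 99 and 91 of the 444 features. With the block 3 members passed in the NMD2 pool, where 53.8% of features did, and 4 in the NAM7 pool, where 50.7% did. RPB2 was the member that missed in the NMD2 pool (adjusted p = 0.0523 in limma with the block).

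The subunit genes span from 213 nucleotides (RPB10) to 3675 (RPB2), lengths being those of the gene in RefSeq R64, and in this series relative RNA was higher for short genes and lower for long ones in the mutant pools. RPB2, RPB5 and RPC40 had the sign of the median difference of genes of their length. Among the 52 genes over 3000 nucleotides the median difference was -0.60 and 45 fell with the block while 0 rose, and RPB2 at -0.42 had 38 genes of that class below it. Among the 106 genes over 500 and up to 1000 nucleotides the median was 0.43, and RPB5 (648 nucleotides) at 0.72 had 34 of them above it. For RPC40 (1008 nucleotides) the class up to 1500 nucleotides had a median of 0.25, and 39 of its 109 genes were above 0.42.

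RPB10 had the opposite sign to the median of its class. It is the shortest gene measured, and the 10 genes of up to 500 nucleotides had a median difference of 0.39. They ranged widely, from -1.33 to 1.82, and 2 of them lay below RPB10 and 7 above it. With the block 6 of the 10 rose and 3 fell. The 3 that fell were RPB10 (-0.64), the mitochondrial acyl carrier protein gene ACP1 (-0.73) and the Pol III subunit gene RPC17 (-1.33), and among those that rose were MMF1 (1.82) and PAM16 (1.0). With the median of its length class removed from every array, RPB10 differed by -0.80 (blocked limma, adjusted p = 0.000513), while RPB2, RPB5 and RPC40 were at 0.095, 0.32 and 0.29 and did not pass (adjusted p = 0.586, 0.0794 and 0.0858). In that fit 41.3% of the 433 genes with a known length passed. With a smooth length trend removed instead, RPB10 differed by -1.83 (limma, adjusted p = 0.000337 with the block and 0.0487 without), and the other 3 were at 0.16 to 0.22 and did not pass, among 43.4% of genes passing with the block and 1.85% without. Between 213 and 378 nucleotides no other gene was measured, so the smooth trend at RPB10 rests on longer genes. Another short gene, HTB1 (396 nucleotides), went from 0.46 to 0.30 with the class median removed and to -0.34 with the smooth trend removed. Without the block, RPB10 after removal of the class median did not pass (adjusted p = 0.174 in limma, 1.39% of genes passing).

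**Figure D3:**
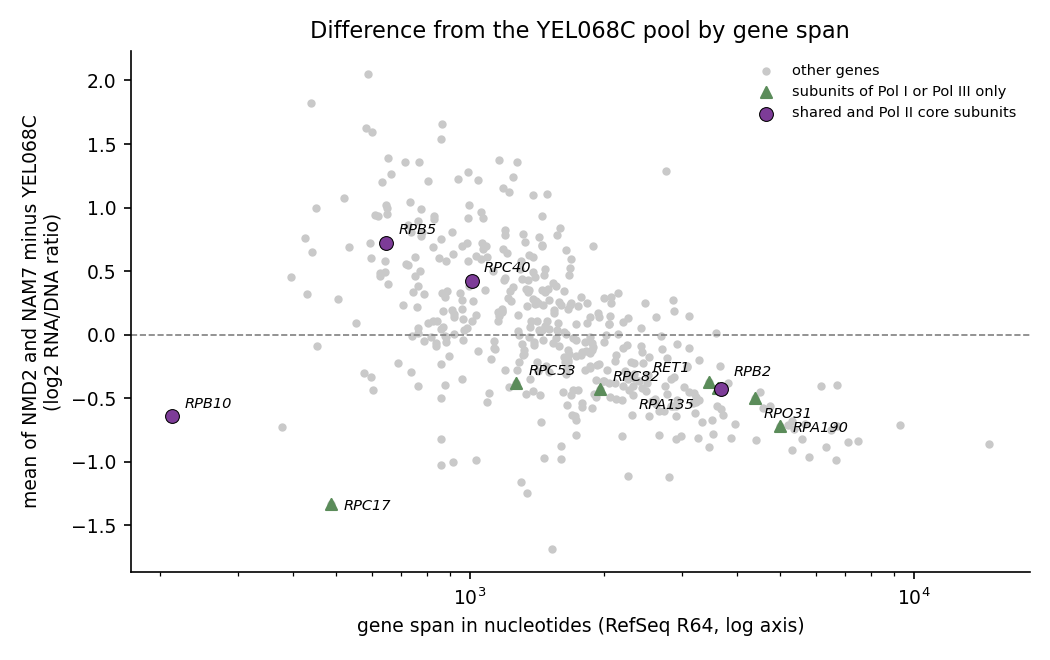
Mean difference of the NMD2 and NAM7 pools from the YEL068C pool (vertical axis, log2 RNA/DNA ratio) against the gene span (horizontal log axis, nucleotides) for the 433 genes with a known length. Purple circles are the shared and Pol II core subunits and green triangles the subunits of Pol I or Pol III only. RPB5, RPC40 and RPB2 lie within the falling cloud. RPB10 and RPC17 lie in the lower part of its sparse short end, where ACP1 lies between them.

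RPB10 also differed from most genes in its high level. The 44 features with the highest YEL068C ratio had a median difference of -0.15. With the block 12 were higher and 21 lower, where 29.7% of all features were higher and 30.2% lower. These features were picked by the same YEL068C values from which the difference is taken. Such a choice favours differences below 0, so the counts cannot show whether a high level goes with a fall. Scanner intensities were not analysed here, and whether the top of the signal range bears on the RPB10 difference was not tested.

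The remaining polymerase subunits give the background of the enzyme itself. Of the subunits of Pol I only, 2 of 7 listed were measured on all arrays, and of those of Pol III only, 5 of 10. RPO21 and RPB11, which encode the largest Pol II subunit and the partner of Rpb3, had no value. Over the 11 polymerase genes measured, 2 were higher (RPB5 and RPC40, both members) and 9 lower with the block. In that fit 29.7% of all features were higher and 30.2% lower. The median difference was -0.42 against -0.0006 over all features, but 5 of the 11 genes span over 3000 nucleotides, where most genes fell. The genes of the second-largest subunits are homologous and of like length. RPB2 differed by -0.42, RPA135 of Pol I by -0.42 and RET1 of Pol III by -0.38. Their YEL068C levels were 1.59, 2.01 and 0.35. The largest-subunit genes RPA190 of Pol I and RPO31 of Pol III were at -0.72 and -0.50. All 5 of these long genes fell with the block, and 0 of 5 passed after removal of either the class median or the smooth trend. After removal of the class median 3 of the 11 passed, RPB10, RPC17 and RPC53, all of them lower, and they were also the 3 that passed after removal of the smooth trend, fits in which 41.3% and 43.4% of all genes with a known length passed. RPC17, which encodes a Pol III stalk subunit, was the only polymerase gene to pass without the block (-1.33, SE 0.24, adjusted p = 0.0454 in limma, 4.05% of features passing). That call was lost when any 1 array was left out (adjusted p = 0.0574 to 0.215), when 0 features passed without either NMD2 or either YEL068C array and 5 and 9 passed without a NAM7 array. RPC53 was at -0.38 (adjusted p = 0.251 without the block and 0.0137 with it).

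**Figure D4:**
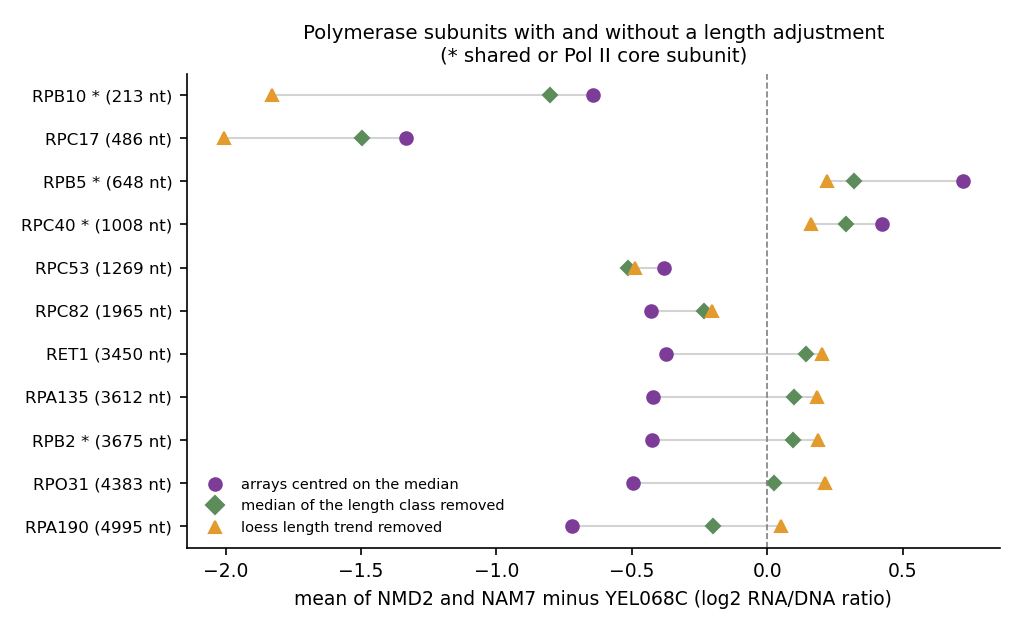
Mean difference of the NMD2 and NAM7 pools from the YEL068C pool (horizontal axis, log2 RNA/DNA ratio) for the 11 polymerase subunit genes, shortest at the top, with asterisks for the shared and Pol II core subunits. Circles are values from arrays centred on their median, diamonds have the median of the length class removed and triangles a smooth length trend. The 5 genes over 3000 nucleotides move towards or past 0 with either adjustment, and RPB10, RPC17 and RPC53 move away from it.

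Factors that work with the polymerases were counted in the same comparison with the block, where 29.7% of all features were called higher and 30.2% lower. Of the Pol II initiation factor genes, 8 of 15 listed were measured, 2 rose, SSL1 of TFIIH (0.61) and TFA2 of TFIIE (0.58), and 1 fell, the TFIIH helicase gene RAD3 (-0.34). Of the Pol I and III initiation factor genes, 6 of 12 were measured and 1 fell, the Pol I factor gene RRN3 (-0.58), while TFC4 of TFIIIC stood at -0.24 (blocked limma, adjusted p = 0.0888). Among 3 measured elongation genes FCP1 (-0.51), the phosphatase of the Pol II tail, and SPT16 (-0.45) fell, and POB3 stood at -0.20 (blocked limma, adjusted p = 0.167). The 1 measured Mediator gene, SRB4, fell (-0.49), and the assembly factor genes RBA50 and RVB1 stood at -0.12 and -0.085 (blocked limma, adjusted p = 0.452 and 0.556). With the median of the length class removed, TFA2 and RAD3 did not pass (blocked limma, adjusted p = 0.29 and 0.938). Neither did FCP1, SPT16 and SRB4 (blocked limma, adjusted p = 0.358, 0.719 and 0.48). SSL1 (0.47) and RRN3 (-0.385) still passed, and TFC3 (0.53), RRN6 (0.35) and TFB3 (-0.44) of the same lists newly passed. In that fit 41.3% of the 433 genes with a known length passed. The SE of SPT16 was 0.85 without the block and 0.12 with it. By limma without the block 0 genes of these 5 lists passed, where 4.05% of all features did. Their smallest unadjusted p was 0.021, for SSL1, and 118 of the 444 features had an unadjusted p under 0.05.

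RPB3, RPB7 and RPC19 had values on the 4 mutant arrays and on neither YEL068C array, so they could not be compared with the reference. Over the series 8.7% of the 655 genes lacked both YEL068C values, 18.2% of the 192 genes of at most 1000 nucleotides and 4.75% of the longer ones. These shares also count genes valued on only some of the mutant arrays. Of the 655 genes, 30 lacked both YEL068C values and had values on all 4 mutant arrays. All 3 of these subunit genes are at most 1000 nucleotides long (957, 516 and 429). A missing value does not say whether RNA or DNA signal was low. Centred over the 505 features valued on all 4 mutant arrays, RPB3, the Pol II alpha-like subunit, read 0.99 and 0.52 in the NMD2 pool and 1.04 and 0.29 in the NAM7 pool. RPC19, the small partner of Rpc40, read 0.72 and 0.15 in the NMD2 pool and 0.82 and -0.07 in the NAM7 pool. Both genes were higher on the arrays numbered 1 than on those numbered 2. RPB7, which encodes a subunit of the Pol II stalk, read 0.73 and 1.28 in the NMD2 pool and 1.56 and 0.93 in the NAM7 pool, where the first NAM7 value rests on 1 of its 2 probes, and its pools overlapped. These 3 spread more between arrays, with ranges of 0.75 to 0.89 over the 4 mutant arrays, than RPB2, RPB5, RPB10 and RPC40, with ranges of 0.19 to 0.43.

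The direct comparison of the NMD2 with the NAM7 pool asks whether loss of either decay factor leaves the same levels. Of the 4 members valued on all arrays 0 passed in limma with or without the block, and 0% of features passed in either fit. None of these members had an unadjusted p under 0.05, against 2 features without the block and 55 with it. RPB10 differed by 0.13 (95% interval -0.26 to 0.53 with the block), RPB2 by 0.13 (-0.19 to 0.45), RPB5 by -0.10 (-0.43 to 0.23) and RPC40 by 0.00 (-0.30 to 0.30). In the fit over the 4 mutant arrays, RPB3 differed by 0.093 (-0.21 to 0.39), RPC19 by 0.063 (-0.24 to 0.37) and RPB7 by -0.24 (-0.70 to 0.23), and 0 of the 7 members passed with the block, where 0.198% of features did. Without the block the intervals were wider, at -0.54 to 0.81 for RPB10, -0.43 to 0.69 for RPB2, -0.68 to 0.48 for RPB5, -0.54 to 0.54 for RPC40, -0.79 to 0.98 for RPB3, -0.91 to 1.03 for RPC19 and -1.10 to 0.62 for RPB7, so neither fit shows the levels of the 2 pools to be alike.

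The genes closest in pattern were found over the 4 same-numbered differences. Being the closest, they lie below the median distance by construction. For RPB5 these were RFC2, SMD1 and ILV5 (Euclidean distances 0.19, 0.29 and 0.30, against a median of 1.59 over all features), which encode a clamp loader subunit, a spliceosome core protein and an enzyme of branched-chain amino acid synthesis. For RPB10 they were CBF2, RRP5 and RPL17A (0.21, 0.32 and 0.40, median 1.57), which encode a kinetochore protein, a ribosome assembly factor and a ribosomal protein. CBF2 differed by -0.15 and -0.85 in the NMD2 arrays and by -0.35 and -0.89 in the NAM7 arrays. The neighbours of RPB10 span from 861 to 5190 nucleotides. The mean difference of RPL17A was -0.82, with an SE of 0.99 without the block and 0.14 with it.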

How the data were processed

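The authors deposited one table of log2 dye ratios, 15743 probe rows by 6 arrays; per the labels' protocols, barcodes were amplified from RNA (Cy3) and genomic DNA (Cy5) and hybridised together, with no dye swap. The base and direction of the deposited ratio are not given in the sources used here: base 2 was read from the range, and the sign was turned because 14 of 15 measured abundant genes lay on one side. Each deposited column has a median of 0. A value was present for 843 probes, 527 of them on all 6 arrays. The submitters interpreted up tags only, but tag types could not be told apart here, so all valued probes were used. The platform table named 827 of these probes.

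A gene's value is the mean of its probes with values on every array (433 genes and 11 unnamed probes) and each array was centred on its median. Tests used limma 3.58.1 under R 4.3.3 (lmFit, eBayes, two-sided) over all arrays with 1 term per pool. The fits were checked on simulated data in which all pools shared the replicate deviations. The members valued on all arrays did not share them, so that check does not cover their blocked calls. The correlations of replicate deviations between pools were 0.89, 0.85 and 0.89. The main fit had no block. The numbers of the titles, which do not say what they share, served as a block in an alternative fit and to pair arrays for differences. Gene spans came from RefSeq R64. Named were all members, the 2 smallest p-values in each list of other polymerase subunits and factors, and the 3 nearest features of the highest and lowest member. Of the abundant list, 10 genes rose and 2 fell with the block, in which 29.7% of all features rose and 30.2% fell. RPO31, RET1, SPT16, RAD3, TFC3, RRN6, TFB3, ACP1, MMF1, PAM16 and HTB1 lie outside that rule and were named after their values were seen. The members and lists were chosen with earlier results of these data known.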

Additional observations from a re-analysis of the deposited data

How the results depend on the processing

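Without the block 0 members passed in any comparison, and this count stayed 0 without centring, with quantile normalization, with features valued on at least 1 array per pool, with each probe on its own, and when any 1 array was left out. With the replicate block it was 3 for NMD2, 4 for NAM7 and 4 for their mean, a gain made by a smaller moderated error, since the median SE of the mean comparison was 0.124 with the block and 0.253 without. Leaving out 1 array under the block gave 0 to 4, 1 to 4 and 1 to 4 members in these comparisons, while 124 to 235, 150 to 203 and 195 to 247 of the 444 features passed. With the block and either length adjustment 1 member, RPB10, passed in each, and without the block 1 passed in the mean after the smooth trend. The class-median adjustment and the fit over the 4 mutant arrays were added after seeing the data. RPB2 changed sign under the length adjustments, at 0.25, 0.13 and 0.19 (NMD2, NAM7, mean) with the smooth trend and 0.13, 0.06 and 0.095 with the class median, with or without the block. Between NMD2 and NAM7, leaving out 1 array moved RPB10 over -0.063 to 0.33 (-0.12 to 0.39 with the block), RPB5 over -0.27 to 0.073 (-0.30 to 0.10), RPB3 over -0.28 to 0.47, RPB7 over -0.55 to 0.078 and RPC19 over -0.38 to 0.51. All other members kept their sign under every alternative run against YEL068C. Over all features, the mean comparison called 18 without the block (0 to 9 when 1 array was left out, 0 with features valued on at least 1 array per pool), 266 with it and 0 without centring, which moved the median of all features by -0.12. The precision rests on the spread of 2 technical arrays per pool.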
